A study of Rattus norvegicus with 6 samples.

Results

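Genes of the stress axis and of neurotrophin signalling were examined for differentially methylated regions (DMRs) in hippocampal brain microvascular endothelial cells (BMECs) of rats under chronic unpredictable mild stress (CUMS). The set comprised 10 genes: the corticosteroid receptors Nr3c1 and Nr3c2, their regulator Fkbp5 and target Sgk1, the peptide genes Crh and Pomc, the peptide receptors Crhr1 and Crhr2, the neurotrophin Bdnf and its receptor Ntrk2. Members were taken by gene symbol from the authors' annotation of DMRs, and each region was counted once by position and cytosine context. Of the 24862 annotated regions, 19 belonged to the set, and they lay in 7 of the 10 genes.

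Methylation had been profiled in 3 CUMS and 3 Ctrl samples. Male rats of the Sprague-Dawley strain were used, adult and 6 weeks of age when obtained, and the labels give neither group a drug. CUMS rats were subjected to randomly ordered stressors (restraint, deprivation of food and water, cage tilt, wet bedding, cold swimming and constant light) for 8 weeks, whereas Ctrl rats stayed in their home cages. CD31-positive, CD45-negative cells were sorted from dissociated hippocampus, CD31 being an endothelial and CD45 a leukocyte surface protein. The samples carry no statement of whether a library came from a single animal or from pooled animals.

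Each region has 1 level per group, the samples having been combined by the authors. Values per sample, coverage and errors were not analysed here, so no difference could be compared with the spread between rats and no test was applied. Levels exist only inside listed regions, so the sorted cell type could not be checked against its markers. Of 24 marker genes of endothelial cells, neurons, glia and pericytes, 10 carried a region, among them 3 of 8 endothelial and 2 of 3 oligodendrocyte markers. Among all protein-coding RefSeq symbols, 25.9% carried one. A CG region in the promoter was carried by 1 marker (Mog, an oligodendrocyte gene) and by 5.25% of all symbols, so these counts do not identify a cell type. Regions higher in CUMS are called hypermethylated, and regions lower in CUMS hypomethylated. CG, CHG and CHH are the sequence contexts of a cytosine, H being any base other than G, and a CpG island is a stretch rich in CG dinucleotides.

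Glucocorticoids released under stress act through 2 nuclear receptors, the glucocorticoid receptor (Nr3c1) and the mineralocorticoid receptor (Nr3c2), which bind DNA once occupied by hormone. Fkbp5 encodes a co-chaperone that lowers the hormone affinity of the glucocorticoid receptor and is itself induced by it. Release is driven from the hypothalamus and pituitary by corticotropin-releasing hormone (Crh), its receptors and the corticotropin precursor (Pomc). Bdnf encodes brain-derived neurotrophic factor, which signals through the TrkB kinase (Ntrk2) and is known for its role in hippocampal plasticity. In mammals most CG sites outside islands are methylated, whereas promoter islands are mostly unmethylated, and CHG and CHH methylation is low in most cell types.

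To show how densely the promoters of the set carry CG sites, the 250 bases before the transcription start are given for 3 genes with a hypermethylated promoter CG region (Nr3c1, Fkbp5 and Sgk1) and for 2 genes with no region (Pomc and Bdnf). For genes with several starts, the window with the most CG sites was taken. The sequences are those of RefSeq on GRCr8, written 5′ to 3′ on the gene's strand with each CG dinucleotide in capitals. The regions themselves are on mRatBN7.2, so they were not placed on these bases.
Nr3c1 (chr18:31613440-31613689, minus strand): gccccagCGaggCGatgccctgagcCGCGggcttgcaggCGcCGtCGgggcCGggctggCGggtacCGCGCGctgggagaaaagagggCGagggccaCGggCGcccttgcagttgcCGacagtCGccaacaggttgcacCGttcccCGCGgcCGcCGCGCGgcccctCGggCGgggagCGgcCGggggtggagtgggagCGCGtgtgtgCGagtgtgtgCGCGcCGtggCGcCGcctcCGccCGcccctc
Fkbp5 (chr20:6543556-6543805, minus strand): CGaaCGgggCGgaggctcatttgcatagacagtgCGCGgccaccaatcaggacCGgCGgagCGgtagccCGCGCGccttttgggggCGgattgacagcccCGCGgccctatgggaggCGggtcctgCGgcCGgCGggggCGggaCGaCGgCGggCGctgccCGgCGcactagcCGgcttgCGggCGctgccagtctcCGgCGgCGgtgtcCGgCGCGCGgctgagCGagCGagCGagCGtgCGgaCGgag
Sgk1 (chr1:24804832-24805081, minus strand): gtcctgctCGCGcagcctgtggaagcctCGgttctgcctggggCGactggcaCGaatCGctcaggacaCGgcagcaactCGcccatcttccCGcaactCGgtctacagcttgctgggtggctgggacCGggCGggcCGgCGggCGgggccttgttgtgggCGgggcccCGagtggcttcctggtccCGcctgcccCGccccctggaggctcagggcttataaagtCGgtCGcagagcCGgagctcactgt
Pomc (chr6:32659103-32659352, plus strand): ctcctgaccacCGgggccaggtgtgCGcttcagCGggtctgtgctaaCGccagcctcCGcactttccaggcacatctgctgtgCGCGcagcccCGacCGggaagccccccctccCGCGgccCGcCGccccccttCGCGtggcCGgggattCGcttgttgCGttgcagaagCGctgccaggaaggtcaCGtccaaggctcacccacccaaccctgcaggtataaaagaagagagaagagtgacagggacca
Bdnf (chr3:116639552-116639801, plus strand): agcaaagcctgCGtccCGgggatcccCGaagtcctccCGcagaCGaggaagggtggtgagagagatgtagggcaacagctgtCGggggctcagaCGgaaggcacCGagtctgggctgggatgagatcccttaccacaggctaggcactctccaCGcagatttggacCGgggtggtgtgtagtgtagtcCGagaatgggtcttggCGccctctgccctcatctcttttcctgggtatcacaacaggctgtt

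The Fkbp5 window held 41 CG dinucleotides and the Nr3c1 window 38, counts reached by 0.980% and 1.69% of the 33469 RefSeq promoter windows. The Sgk1 window held 22 and the Pomc window 20, which 13.7% and 16.7% of windows reached. The Bdnf window held 12, a count that 31.5% of windows reached. Of the genes not shown, Crhr1 held 28 in its richest window (reached by 6.79%) and Crhr2 held 15 (25.8%). Crhr1 thus had more CG sites than Sgk1 although no CG region was annotated to it. The windows shown for Pomc and Bdnf thus held more CG sites than the median of all windows, which was 5. That of Bdnf was the richest of 6 windows, which held from 1 to 12, so the comparison favours it. RefSeq windows were found for 7 of the 10 genes, and those of Crh, Nr3c2 and Ntrk2 were not used here. The hexamer AGAACA, to which the glucocorticoid receptor can bind, was searched on both strands and occurred in 2 of the 16 windows of the set, both of Bdnf, compared with 17.5% of all windows. The EGR1 motif GCGGGGGCG was present in the Fkbp5 window and in 2.45% of all windows. The cAMP response element TGACGTCA was in 0 of the 16 windows and in 1.59% of all windows. A match or its lack describes only the letters of these windows.

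The presence of regions was determined first. Nr3c1, Crhr1 and Crhr2 each carried 1 region, Nr3c2 carried 2, Sgk1 3, Fkbp5 4 and Ntrk2 7, whereas Crh, Pomc and Bdnf carried 0. Among all 23154 protein-coding RefSeq symbols, 25.9% carried an annotated region, compared with 70% of this set. A CG region in the promoter was present in 5 members (Nr3c1, Nr3c2, Fkbp5, Sgk1 and Ntrk2) and in 5.25% of all protein-coding symbols. Long genes offer more room for a region and gene length was not taken into account. All promoter CG regions of the set lay in a CpG island, and the share among genes with an island promoter was not computed. These shares are therefore descriptions. The number of regions in Ntrk2 was reached by 1.85% of protein-coding genes with at least 1 region, and that in Fkbp5 by 9.70%.

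Of the 19 regions, 17 were hypermethylated and 2 hypomethylated, a hypermethylated share of 89.5% that compares with 78.1% of all 12262 regions annotated to a gene or promoter. In the CG context 8 of 8 regions were hypermethylated (87.7% of all gene-annotated CG regions), in the CHG context 3 of 4 (69.3%) and in the CHH context 6 of 7 (77.5%). The direction of the members thus lay near that of the whole annotation. The methods require 10 points or more of a DMR, a size reached by 5 of the 19 regions (26.3%, against 33.2% of all gene-annotated regions). These 5 lay in Nr3c1, Fkbp5 and Ntrk2, so that 14 regions, and every region of the other 4 genes (Nr3c2, Sgk1, Crhr1 and Crhr2), fell short of it. A difference of at least 20 points was present in 2 (10.5%, against 10.0%). The regions of the set were therefore no larger in difference than listed regions in general. The plot of group levels shows all 19 regions.

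**Figure D1:**
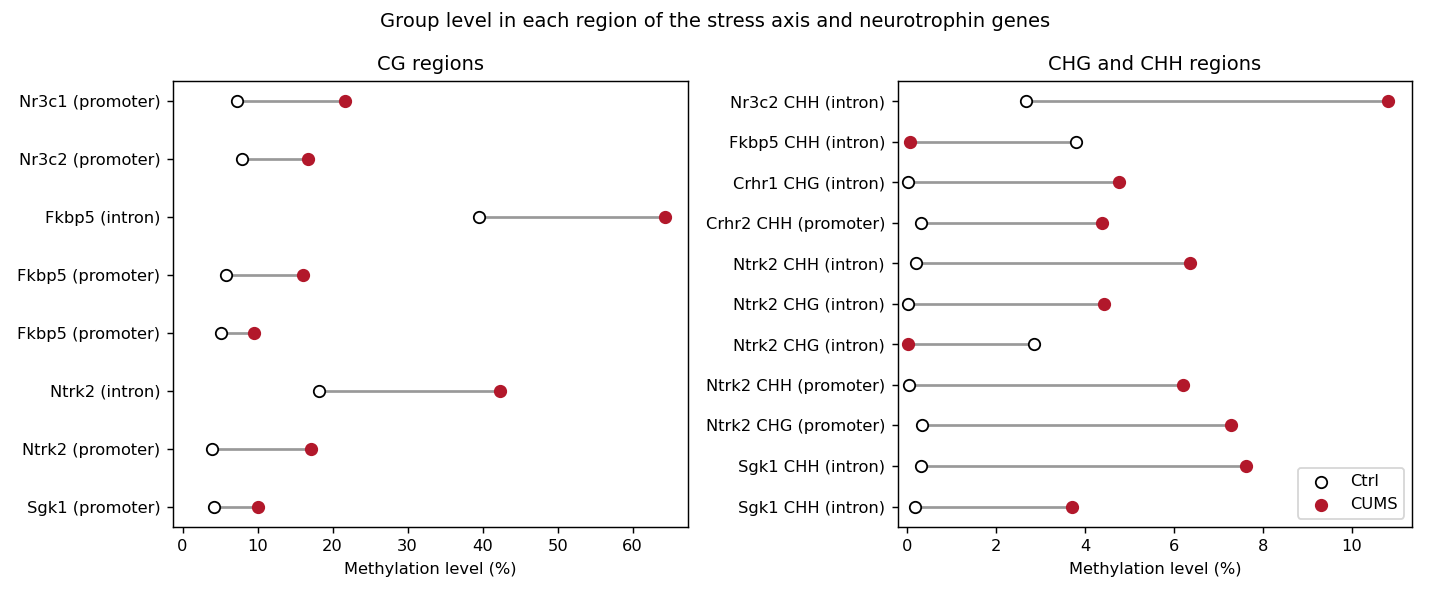
Methylation level (%) in Ctrl (open circles) and CUMS (filled circles) for each of the 19 regions, with CG regions on the left and CHG and CHH regions on the right on a narrower scale. Each point is 1 value per group without error; CUMS lies to the right of Ctrl in 17 regions and to the left in 2, an intronic CHH region of Fkbp5 and an intronic CHG region of Ntrk2.

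Next, promoter CG regions were compared between CUMS and Ctrl. There were 6 such regions in 5 genes, all 6 lay in a CpG island and all 6 were hypermethylated, as were 96.9% of the 1500 promoter CG regions of the annotation. Their levels ranged from 3.90% to 7.96% in Ctrl and from 9.56% to 21.6% in CUMS, around the medians of 6.42% and 18.7% of all promoter CG regions. The median difference was 9.54 percentage points, somewhat below the 11.6 points of all promoter CG regions. The histogram of promoter CG regions shows no member in its upper tail, while the shorter Fkbp5 region and the Sgk1 region lie in its lower tail.

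**Figure D2:**
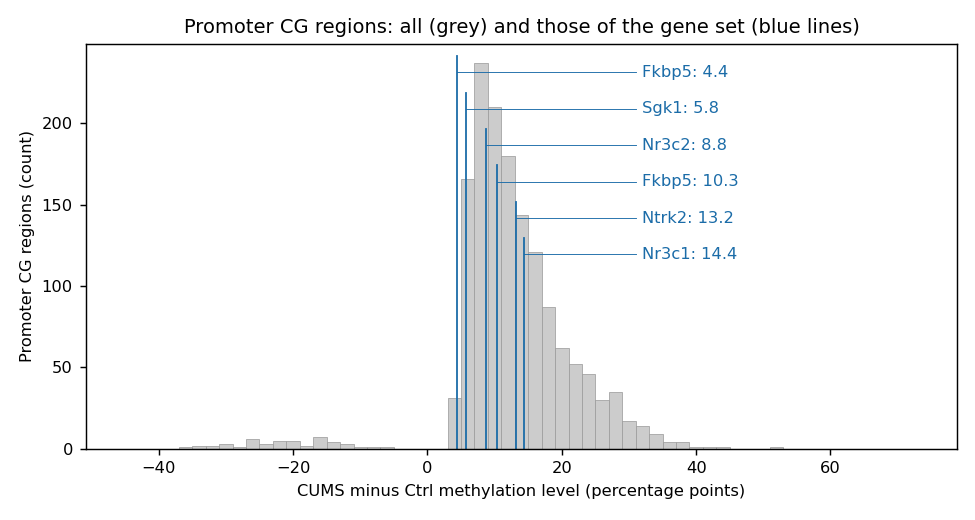
Number of promoter CG regions (vertical axis) by the difference between CUMS and Ctrl in percentage points (horizontal axis) over the 1500 promoter CG regions of the annotation, in grey. Blue lines mark the 6 regions of the gene set, which run from 4.45 points in Fkbp5 to 14.4 points in Nr3c1.

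In Nr3c1 (ENSRNOG00000014096), which encodes the glucocorticoid receptor, the single region lay on chromosome 18 at 31362025 to 31362504 of mRatBN7.2. Methylation there was 21.6% under CUMS against 7.27% in Ctrl, which is 14.4 points more and a ratio of 2.97. It was annotated to the promoter, 5′ untranslated region, exon and intron. It was the longest region of the set, with 141 CG cytosines in 480 bp, a number reached by 2.00% of promoter CG regions. It covered 17.1% of a CpG island of 2805 bp. Although its difference was the largest among the 6 promoter CG regions of the set, 37.6% of all promoter CG regions differed by at least as much.

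Nr3c2 (ENSRNOG00000034007), the mineralocorticoid receptor gene, carried a promoter CG region on chromosome 19 at 31060372 to 31060456. CUMS samples had 16.7% and Ctrl samples 7.96%, and the region spanned 85 bp with 27 cytosines inside an island of 2038 bp. Both corticosteroid receptor genes were thus hypermethylated at a promoter island. The difference of 8.76 points in Nr3c2 was smaller than in Nr3c1, but neither carries an error. A CHH region in an intron of Nr3c2, at 30939060 to 30939319, had 10.8% under CUMS against 2.67%, a difference reached by 39.9% of CHH regions of its kind. Of the 11 CHG and CHH regions of the set, it was the only one whose lower group exceeded 1%, and it also had the highest level.

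Fkbp5 (ENSRNOG00000022523) carried 4 regions on chromosome 20. At the transcription start, a region at 6541511 to 6541718 with 77 cytosines was at 5.73% in Ctrl and 16.0% under CUMS (10.3 points, ratio 2.80). A further promoter region began 149 bp beyond it, at 6541868 to 6541921, and had 9.56% in CUMS and 5.12% in Ctrl. This second difference, 4.45 points, was the smallest of the set in the CG context, and 99.3% of promoter CG regions differed by at least as much. Both regions lay in the same island of 979 bp.

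The largest difference of the whole set lay in an Fkbp5 intron outside islands, at 6519365 to 6519516. There, 12 CG cytosines over 152 bp were methylated at 64.3% under CUMS and 39.5% in Ctrl, 24.8 points apart. Of the 2528 gene-annotated CG regions outside promoters, 15.4% differed by at least as much. Methylation of Fkbp5 introns has been studied because intronic enhancers bind the glucocorticoid receptor, and whether this region contains such an enhancer was not tested. An intronic CHH region at 6526211 to 6526411 went the other way, at 0.0697% under CUMS against 3.79%, a difference of -3.72 points. Fkbp5 was 1 of 2 genes of the set with regions of both directions.

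Sgk1 (ENSRNOG00000011815) encodes a kinase that is induced by corticosteroids and regulates ion channels. Its CG region on chromosome 1 at 22985779 to 22985879 was annotated to both a promoter and an intron and lay in an island of 876 bp. Levels of 10.01% (CUMS) and 4.25% (Ctrl) gave a difference of 5.76 points, which 94.1% of promoter CG regions reached. Sgk1 therefore had one of the weaker promoter differences of the set. Its other regions were intronic CHH regions in repeats. At 23025244 to 23025500, in a SINE of class B2, CUMS had 7.62% and Ctrl 0.317%. At 23080860 to 23081208, in an LTR of class ERVL-MaLR, the levels were 3.71% and 0.186%. The latter difference was small, since 91.4% of CHH regions outside promoters reached it. In all, 4 of the 19 regions overlapped a repeat, and the part of repeats in their levels was not tested.

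In the peptide system of the axis, both receptor genes carried 1 region each and both peptide genes 0. Crhr1 (ENSRNOG00000004900), the main receptor of corticotropin-releasing hormone, carried 1 intronic CHG region on chromosome 10 at 89045897 to 89045978. Over its 13 cytosines, CUMS had 4.77% and Ctrl 0.0148%, within a SINE of class B4. Crhr2 (ENSRNOG00000011145), which responds to urocortins, carried 1 promoter CHH region on chromosome 4 at 84267148 to 84267534, where 4.37% (CUMS) stood against 0.316% (Ctrl). This region overlapped LINE and LTR repeats and was the only promoter region of the set outside an island. No CG region was annotated to either receptor, and 12.9% of all protein-coding symbols carried one. For Crh and Pomc, no region of any context was annotated, and 25.9% of all protein-coding symbols carried one. The full list was not searched for these genes, so CHH regions outside the annotation are not known there. In RefSeq gene order, the nearest genes with a region were Dnajc5b and Cp on either side of Crh and Dnmt3a and Ncoa1 on either side of Pomc. The facing Dnmt3a region was an intronic CHG region with 3.77% under CUMS and 0.193% in Ctrl. Dnmt3a encodes a DNA methyltransferase. The Ncoa1 region, a promoter CG region of a receptor coactivator, had 15.8% and 5.84%.

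In the neurotrophin system, regions were annotated to the receptor gene only. A gene without a region is the usual case, since 25.9% of all protein-coding symbols carried one. The Ntrk2 regions spread over 187 kb, and gene length was not taken into account. Bdnf carried 0 regions, whereas Ntrk2 (ENSRNOG00000018839, chromosome 17) carried 7, of which 6 were hypermethylated. The absence of a region says only that none was annotated to the gene symbol. The full list was not searched for Bdnf, and its level in either group is not known from these tables. The nearest genes with a region were Mpped2, 6 protein-coding genes before Bdnf, and Aven, 65 after it.

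In the Ntrk2 promoter, regions of all 3 contexts coincided within 331 bp of an island of 2419 bp. The CG region at 5869785 to 5869875 had 17.1% under CUMS and 3.90% in Ctrl, the lowest Ctrl level and, with a ratio of 4.37, the steepest relative change among the promoter CG regions of the set. The CHG region at 5869781 to 5870018 had 7.29% and 0.324%, and the CHH region at 5869693 to 5870023 had 6.20% and 0.0427%. The 3 regions shared 91 bp, and all were higher in CUMS. Within the annotation such a coincidence was infrequent, since 14 of the 1500 promoter CG regions (0.933%) overlapped both a CHG and a CHH region. In all 14 the contexts differed in the same direction. The annotation holds 9996 CHH regions against 145823 in the full list, and overlaps with the unannotated ones were not counted. The CHG difference, 6.97 points, was reached by 14.0% of promoter CHG regions, while the CG and CHH differences lay near the middle of theirs, at 43.1% and 54.5%.

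The remaining Ntrk2 regions were intronic and outside islands. A CG region at 5700107 to 5700161 was at 42.3% under CUMS and 18.2% in Ctrl, 24.1 points apart over 10 cytosines. This was the second of the 2 regions of the set that reached 20 points, and both were intronic CG regions at intermediate levels. A CHH region at 5682829 to 5683104 had 6.35% under CUMS against 0.189%. The CHG region at 5704960 to 5705062 had 4.43% and 0.0127%. The other intronic CHG region, at 5837898 to 5837959, was hypomethylated at 0.0170% under CUMS against 2.84%, but it rested on 5 cytosines, and 99.8% of like regions held at least as many.

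Promoter regions of the set lay in an island in 8 of 9 cases, compared with 66.6% of all 2287 promoter regions, and 9 of 9 were hypermethylated, compared with 88.8%. Of these 9, 3 overlapped one another in the Ntrk2 promoter and 2 shared the Fkbp5 island, so they are not 9 separate places. Intron-only regions lay away from islands, their shores and their shelves in 10 of 10 cases, compared with 86.8% of all 8010 such regions, and 8 of 10 were hypermethylated, compared with 73.5%. Both classes of the set thus resembled the annotation as a whole. In the 11 CHG and CHH regions the higher group had 2.84% to 10.8%, and the lower group was under 1% in 10 of them.

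The full list of DMRs, which holds 145823 CHH regions against 9996 in the annotation, was used to look between the first and last annotated region of each gene. Nr3c1, Crhr1 and Crhr2 had 1 annotated region each, so nothing could be added there. Crh, Pomc and Bdnf had no annotated region and were not searched. The full list added 9 regions in Ntrk2, 6 in Nr3c2, 5 in Sgk1 and 2 in Fkbp5, all 22 in the CHH context. Of these, 14 were hypermethylated and 8 hypomethylated, against 6 of the 7 annotated CHH regions of the set. The added regions were smaller, with 21 to 97 cytosines each against 109 to 156 in the annotated CHH regions. The contrast in direction is thus also one of region size. In the full list as a whole, 64.6% of CHH regions were hypermethylated. The plot of regions by distance from the promoter shows both directions within single genes.

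**Figure D3:**
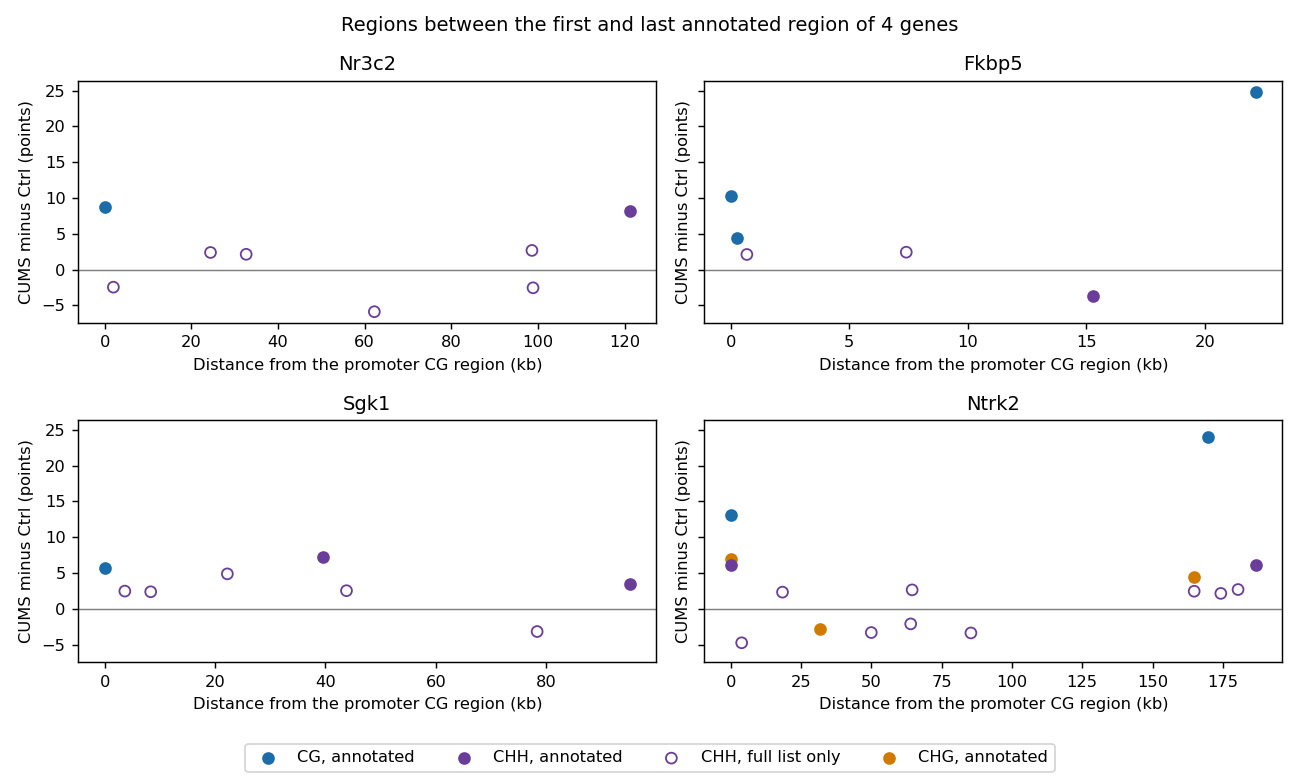
Difference between CUMS and Ctrl in percentage points (vertical axis) against the distance from the promoter CG region in kb (horizontal axis) for Nr3c2, Fkbp5, Sgk1 and Ntrk2. Filled points are annotated regions coloured by context, open points are the 22 CHH regions found only in the full list, and each gene has at least 1 region of more than 5 points above 0.

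Finally, 58 further genes of the same pathways were counted. A region was carried by 26 of them (44.8%, against 25.9% of all protein-coding symbols), again without regard to gene length. The 58 regions comprised 48 hypermethylated and 10 hypomethylated ones, or 82.8% hypermethylated against 78.1% of all gene-annotated regions. The median difference over these regions was 5.54 points. Of 19 CG regions, 18 were hypermethylated (87.7% in the annotation), as were all 8 promoter CG regions (96.9%). Directions were thus close to those of the annotation. The lists differed in how many genes carried regions, as the plot by gene list shows.

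**Figure D4:**
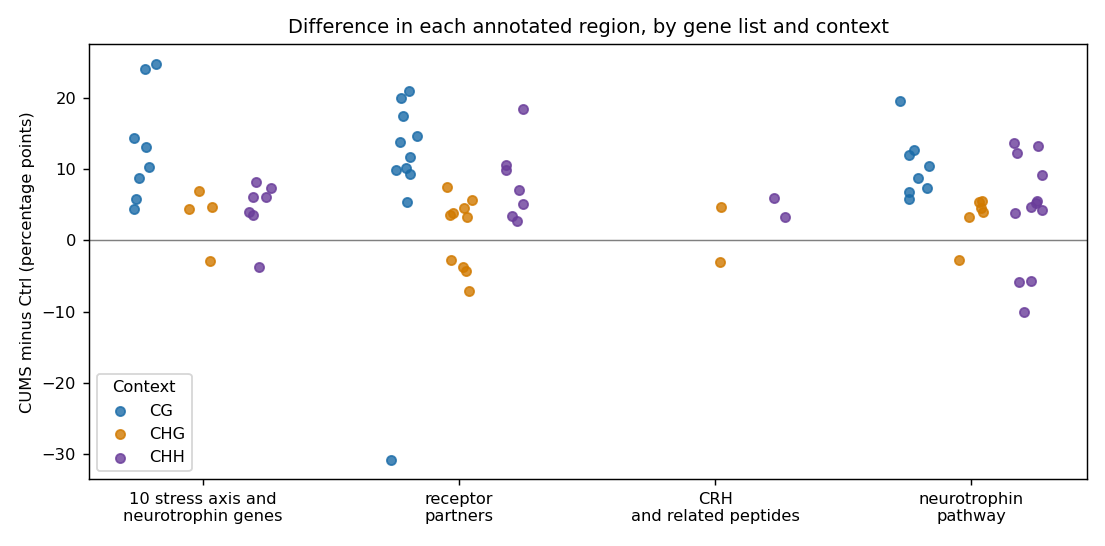
Difference between CUMS and Ctrl in percentage points for every annotated region, by gene list (horizontal axis) and context (colour); points are regions and are shifted sideways for visibility. Of the 58 regions of the further genes, 48 lie above 0 and 10 below.

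Among 20 partners, enzymes and targets of the corticosteroid receptors, 10 genes (50%, against 25.9% of all protein-coding symbols) carried 28 regions. Of these, 23 (82.1%) were hypermethylated, against 78.1% of all gene-annotated regions. Zbtb16, a transcription factor induced by glucocorticoids, carried 3 hypermethylated and 2 hypomethylated regions. Its intronic CG region had 49.5% in CUMS and 28.5% in Ctrl. The promoter CG region of Sgk2, a paralogue of Sgk1, had 37.6% and 17.6%. The CG regions of both Zbtb16 and Sgk2 differed at intermediate levels outside islands. The promoter CG region of Nedd4l, a ubiquitin ligase that Sgk1 phosphorylates, had 25.2% and 7.73%. Ncoa2, a receptor coactivator, carried the most regions of this list, with 5 hypermethylated and 1 hypomethylated, and the larger of its CG differences was 22.5% against 7.89%. The co-chaperone Fkbp4, which acts opposite to Fkbp5 on the receptor, had an intronic CG region in an island with 15.7% and 5.55%.

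Of 17 genes of the corticotropin-releasing hormone, vasopressin, oxytocin and melanocortin systems, 3 carried a region (17.6%, against 25.9% of all protein-coding symbols), and 0 carried a CG region (against 12.9%). Adcyap1r1, the receptor of the stress peptide PACAP, carried 2 overlapping hypermethylated regions at an exon, with 4.76% in CUMS and 0.133% in Ctrl for CHG and 3.43% and 0.0814% for CHH. Pcsk2, a protease that processes peptide precursors, had an intronic CHH region with 6.07% and 0.0981%. The remaining gene was Oxt, the oxytocin gene, named after its values were seen, with a hypomethylated exonic CHG region (0.0428% and 3.09%).

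Among 21 neurotrophin pathway genes, 13 (61.9%, against 25.9% of all protein-coding symbols) carried 26 regions. Of these, 22 (84.6%) were hypermethylated, against 78.1% of all gene-annotated regions. Sorcs1, of the sortilin family of sorting receptors, had an intronic CG region with 46.8% in CUMS and 27.3% in Ctrl. Ntf3, which encodes neurotrophin-3, had an intronic CHH region with 14.0% and 0.226%. Sorcs3 carried 6 hypermethylated regions, the most of this list, among them a promoter CG region in an island with 18.5% and 6.47% and an intronic CHH region with 13.5% and 0.234%. Creb1, a transcription factor downstream of TrkB, had an intronic island region with 19.2% and 6.45%. Vgf, which is induced by neurotrophins, had 17.2% and 6.72% in an exonic island region. The named island regions of Sorcs3, Creb1 and Vgf had Ctrl levels within the range of the 6 promoter CG regions of the set, whereas the Sorcs1 region lay outside islands at intermediate levels.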

How the data were processed

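DNA methylation was measured in 3 CUMS and 3 Ctrl samples, grouped by their titles. Libraries were treated with TET2 and APOBEC3A, so a cytosine that stays undeaminated is read as methylated in any context, and the part of incomplete deamination was not tested. Per the submitters' processing notes, reads were checked with FastQC 0.11.3, trimmed with fastp 0.20.0 and aligned with Bismark 0.16.3 (Bowtie2) to mRatBN7.2; regions were called with DSS. The deposited level of each region is a fraction per group, given here in percent, with differences as CUMS minus Ctrl. The depth behind each level is not given in the tables, which limits precision to an unknown extent. Columns of the authors' own comparison (level difference and DSS area statistic) were not used. The gene profile table was not used here. The annotation covers all CG, most CHG and a part of the CHH regions of the full list; the smallest annotated difference was 2.00 points, below the 10 points that the study's methods require, and regions were kept as listed.

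Regions were counted with pandas 2.3.3 (Python 3.11.15), and counting was tested on simulated data. Promoter limits are those of the annotation. Background shares used RefSeq protein-coding symbols (GRCr8), matched for 10 of 10 members. Of 7347 gene names in the annotation, 5999 matched such a symbol. A gene named differently in the annotation counts as carrying no region, so the background shares may be too low. The planned count beside background was used, and the permutation test was not run because values per sample were not analysed. Members and lists were chosen with earlier results of these data known. All 10 members were named; from the 58 further genes, by rule, those with a CG region of at least 10 points, the gene with the most regions and the 3 largest differences in each list. One gene that the rule names is not reported here. Alternatives covered size of difference, cytosines, length, context, feature, merging and the full list.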

Additional observations from a re-analysis of the deposited data

Results flagged for a closer look

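The following CHH regions are given because they are in the full list but not in the annotation. This holds for most CHH regions, since the full list has 145823 and the annotation 9996. Between the first and last annotated region, Ntrk2 held 9 CHH regions outside the annotation, Nr3c2 held 6, Sgk1 held 5 and Fkbp5 held 2. In Ntrk2, 5 were hypermethylated and 4 hypomethylated over 187 kb, and in Nr3c2 the numbers were 3 and 3 over 121 kb. In Sgk1, 4 were hypermethylated and 1 hypomethylated, and both in Fkbp5 were hypermethylated. Together, 14 of the 22 were hypermethylated, near the share of 64.6% among all CHH regions of the full list. The higher group had a level of 2.14% to 6.27% in these regions, and the lower group 0.0330% to 0.954%. One of the Ntrk2 regions shared 102 bp with the annotated intronic CHG region at 5704960 to 5705062, and both were higher in CUMS. No control of the same kind within a group was analysed, and the difference from the annotated regions was not tested.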

How the results depend on the processing

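No paired analysis was possible because samples were combined within each group before deposition. Leaving out a replicate was not run for this reason. Results were counts, and a count was taken as moved when it changed by over 1.5 times. Of 60 comparisons, 15 stayed within this limit and 45 moved, as each alternative removes or adds regions by construction. Values are given as genes, regions and hypermethylated regions, with only the moved ones listed.

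For the 10 genes (7, 19 and 17 as annotated), at least 10 points left 3, 5 and 5, and at least 20 points left 2, 2 and 2. At least 200 bp left 10 regions, 9 of them hypermethylated. CG alone left 8 and 8, CHH alone 7 and 6, and CHG alone 2 genes with 4 and 3. Without intron-only regions, and likewise with promoter regions alone, 9 and 9 were left. The full list gave 41 regions, 31 hypermethylated. The hypermethylated share was lowest, at 75%, with CHG alone among these 11 alternatives.

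For the 58 genes (26, 58 and 48), at least 10 points left 12, 18 and 16, and at least 20 points 3, 3 and 2. At least 200 bp left 15, 26 and 22. CG alone gave 14, 19 and 18, CHG 13, 18 and 12, and CHH 14, 21 and 18. Without intron-only regions 14, 19 and 16 were left, and promoter regions alone gave 11, 12 and 10.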

Other observations

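Hypomethylated regions of the wider pathway genes numbered 10, of which 9 were in the CHG and CHH contexts. Their 58 regions were 82.8% hypermethylated, near the 78.1% of all gene-annotated regions. In the annotation, too, CHG (69.3%) and CHH regions (77.5%) were less often hypermethylated than CG regions (87.7%). The intronic CHH region of Frs2, an adaptor of neurotrophin receptors, had 0.516% in CUMS and 10.5% in Ctrl. That of Ntrk3, the receptor of neurotrophin-3, had 0.133% and 5.91%, whereas the intronic CHH region of the ligand gene Ntf3 was higher in CUMS. Ntrk3 and Ntf3 each carried 1 region and no CG region. A promoter CHG region of Hsp90aa1, which encodes the chaperone that holds the glucocorticoid receptor, had 0.0308% and 4.30%, and that of Arc, an activity-induced neuronal gene, had 0.0225% and 2.74%. Hsp90aa1, Arc, Frs2 and Ntrk3 were chosen for mention after their values were seen.

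Next to Crh in gene order, an intronic CG region of Cp, which encodes ceruloplasmin, had 41.4% in CUMS and 65.4% in Ctrl. It lay on chromosome 2 at 102494213 to 102494307 of mRatBN7.2.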
